A study of Mus musculus with 16 samples.

Results

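This comparison covers RNA from the whole lysate of the mouse striatum, and asks how that RNA differed between mice whose astrocytes carried a calcium pump and mice whose astrocytes carried a control protein. Its members are the 8 input libraries of the study, chosen by their fraction label out of 16 libraries in all. They come from 8 adult C57BL/6N mice, 1 input per mouse. All 8 mice received a RiboTag virus (AAV), which expresses Rpl22-HA, a ribosomal protein with a hemagglutinin tag, in astrocytes. In 4 mice a further AAV encoded a control protein (control 1 to 4), and in the other 4 it encoded hPMCA2w/b (PMCA 1 to 4). An input is the cleared lysate before precipitation, so it holds RNA of every striatal cell type and not only of the cells that the viruses reached. The other 8 libraries hold the RNA that was precipitated from the same lysates through the tag (IP). The sources used here give neither the animals' sex nor the promoter of each virus.

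hPMCA2w/b is a splice form of a plasma membrane calcium ATPase, which spends ATP to move calcium ions out of the cell and so damps calcium signals in astrocytes. The striatum consists mainly of GABAergic projection neurons that carry dopamine receptors D1 or D2, with interneurons, astrocytes, oligodendrocytes, microglia and vessel cells among them. In whole-tissue RNA a transcript that only astrocytes or only microglia make is diluted by the RNA of all other cells, and fewer cells of a type cannot be told apart from less RNA per cell.

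The inputs held 32.3 to 40.9 M reads, and values are log2 CPM, the log2 of a gene's share of a library's reads in CPM after the authors' scaling of the libraries. The striatal label was borne out by its markers. Ppp1r1b, the DARPP-32 gene of projection neurons, lay at 10.42 to 10.72 log2 CPM in the 8 inputs. The dopamine receptor genes Drd1a and Drd2 lay at 8.75 to 9.03 and at 6.84 to 7.01. Xist, which is transcribed from the inactive X chromosome, was high in control 4 (6.62) and PMCA 3 (7.22) and at most -0.40 in the other 6, so each group held 1 such mouse. Control 4 stood apart from its group. Across genes its highest correlation with another control was 0.9872, against 0.9925 with a PMCA input, and on the first principal component (33.8% of the variance) it lay at 19.54, between PMCA 4 (17.48) and PMCA 3 (28.63), whereas controls 1 to 3 lay at -25.31 to -18.91. By the animal numbers in the titles, control 4, PMCA 3 and PMCA 4 form a higher-numbered set, and the other 5 mice a lower-numbered one. In its source name, control 4 has a number of the lower set. Below, the number set is that of the titles unless the source names are mentioned.

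Of 16306 genes tested, 59 were higher in PMCA inputs (0.362%) and 13 were lower (0.0797%), at an adjusted p under 0.05. The test was limma with Benjamini-Hochberg adjustment over all genes tested, two-sided, and every adjusted p below comes from it. The median gene had a log2 fold (PMCA minus control) of -0.01. All 72 genes had 4 PMCA inputs on the same side of all 4 control inputs, which also held for 4.99% of all genes tested in the higher and 4.77% in the lower direction. Of the rises 10 were at least 2-fold, and of the falls 1 was. The genes that rose included receptors and secreted proteins of phagocytes, transporters of astrocytes, and genes of long genomic span, and those that fell included targets of p53. At an unadjusted p under 0.05 there were 1694 higher (10.4%) and 1458 lower genes (8.94%). List counts at that unadjusted p, given below, are to be read beside these shares.

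The number of calls depended on single libraries. Without control 4 it was 936 higher (5.74%) and 416 lower (2.55%), and all 72 genes were among these. With the number set of the titles as a block it was 620 higher (3.80% of the genes tested) and 248 lower (1.52%), again with all 72 genes called (largest adjusted p = 0.0111). With the number set of the source names as a block it was 25 higher (0.153%) and 7 lower (0.0429%), and 50 of the 72 genes lost their call. Those kept were 18 of the 59 higher genes, among them Clec7a, Slc1a2 and Kcnq1ot1, and the 4 lower genes Rpl22, Mxra7, Aldh1a1 and Ccng1. Without control 1 it was 6 higher and 4 lower, without control 2 it was 5 and 5, and without control 3 it was 2 and 4. Leaving out PMCA 1, PMCA 2, PMCA 3 or PMCA 4 gave 0, 2, 1 and 28 higher and 4, 4, 4 and 5 lower. The same 4 lower genes were called in each of the 8 omissions, and the other 68 genes lost their call without at least 1 library. None of the 72 changed direction under any alternative tried.

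Rpl22, whose tagged copy the RiboTag virus carries, had the smallest adjusted p. It lies on chromosome 4 (152324436 to 152334082, mm10). Its level was 7.77, 7.65, 7.49 and 7.48 log2 CPM in controls 1 to 4 and 6.75, 6.79, 6.73 and 6.59 in PMCA 1 to 4. The highest PMCA input thus lay below the lowest control input. The log2 fold of Rpl22 was -0.88 (SE 0.07, adjusted p = 0.000489). Its paralog Rpl22l1, a ribosomal protein of the same family, lay at 4.97 to 5.72 in controls and 4.88 to 5.33 in PMCA mice, which overlap (log2 fold -0.29, SE 0.15, adjusted p = 0.297). Atp2b2, the mouse gene of the pump PMCA2, lay at 10.36, 10.25, 10.25 and 10.30 in controls and 10.49, 10.39, 10.46 and 10.34 in PMCA mice, where the groups overlap only between PMCA 4 and control 1 (log2 fold 0.13, SE 0.04, adjusted p = 0.153). The sources used here do not say whether reads of the human pump count toward Atp2b2, or reads of the viral Rpl22-HA toward Rpl22. Viral Rpl22 RNA and that of the mouse's own gene thus cannot be told apart here. The Rpl22 level followed the treatment, and for every difference described here an effect of the pump and one of the Rpl22 level cannot be told apart.

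Of the genes that the transcription factor p53 switches on after DNA damage or other stress, 5 were called lower in PMCA mice. Of 29 such genes, 5 fell and none rose, against 0.0797% and 0.362% of all genes tested. The list's median log2 fold was -0.20, and 25 of 29 folds were below 0. In 11 of 29 genes every PMCA input lay below every control, as in 4.77% of all genes tested. Without control 4 the count was 9 lower, against 2.55% of all genes tested. With the number set as a block it was 10 lower, against 1.52%, and none rose in either. With the number set of the source names as a block only Ccng1 was lower (median -0.23). The summed level of the list was 1270, 1280, 1230 and 1220 CPM in the controls and 1130, 1110, 1150 and 1110 CPM in the PMCA mice, so the sums of the 2 groups were apart as well, with control 4 among the controls.

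Ccng1, the gene of cyclin G1, which feeds back on p53, lay at 7.35, 7.38, 7.22 and 7.39 log2 CPM in controls and 6.90, 6.81, 6.98 and 6.81 in PMCA mice. Every PMCA input was below every control, and the log2 fold was -0.46 (SE 0.05, adjusted p = 0.00713). Cdkn1a, which encodes p21, an inhibitor of the kinases of the cell cycle, lay at 4.34, 3.79, 3.89 and 4.19 in controls and 3.33, 2.94, 3.43 and 3.26 in PMCA mice. Its log2 fold was -0.81 (SE 0.13, adjusted p = 0.0403), with control 1 highest and PMCA 2 lowest.

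Phlda3, a repressor of the kinase Akt, lay at 5.59, 5.26, 5.34 and 5.76 in controls and 4.85, 4.87, 4.97 and 4.78 in PMCA mice, and fell by 0.62 (SE 0.10, adjusted p = 0.0371). Eda2r, a receptor of the TNF receptor family, lay at 2.95, 2.83, 2.76 and 2.68 in controls and 2.20, 1.93, 2.24 and 1.78 in PMCA mice, and fell by 0.77 (SE 0.12, adjusted p = 0.0403). Aen, a nuclease that acts in apoptosis, lay at 4.67, 4.53, 4.54 and 4.79 in controls and 4.17, 4.20, 4.33 and 4.12 in PMCA mice, and fell by 0.43 (SE 0.07, adjusted p = 0.0432). In each of the 3 genes the controls and the PMCA mice formed separate ranges, with control 4 at the top of the controls for Phlda3 and Aen and at their bottom for Eda2r.

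Other p53 targets fell short of the threshold with groups that still did not overlap. Ckap2, a microtubule-associated protein, had a log2 fold of -0.94 (SE 0.18, adjusted p = 0.0503). Bax, which opens the outer mitochondrial membrane in apoptosis, had -0.24 (SE 0.05, adjusted p = 0.077). Gdf15, a cytokine released under stress, had the largest difference of the list at -1.71 (SE 0.39, adjusted p = 0.0781), at levels of -0.78 to -0.22 log2 CPM in controls and -2.82 to -0.97 in PMCA mice. Mdm2, the ubiquitin ligase that degrades p53, differed little between the groups (-0.11, SE 0.04, adjusted p = 0.212).

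The promoters of 3 of these genes hold matches to the p53 binding sequence. RefSeq windows (GRCm38.p6) of 300 bases across a gene's start were searched on both strands for the p53 half-site consensus, here called by its name. A half-site was in 4 of the 13 genes that fell (30.8%), namely Ccng1, Cdkn1a, Aen and Pgam1. It was in 8 of 21 windows of the p53 list (38.1%), 7.0% of 12661 windows of genes tested and 8.37% of all 27025 windows. The windows of Phlda3 and Eda2r held none. Capitals mark the half-sites in 3 windows, which show these matches in their context. They begin 185 bases before the start in Ccng1 (chr11:40755237-40755536, minus strand). In Cdkn1a (chr17:29090729-29091028, plus strand) they begin 73 and 51 bases before it, and in Aen (chr7:78895677-78895976, plus strand) 11 bases after it. Cdkn1a and Aen have 2 windows each, of which the first is shown.
Ccng1: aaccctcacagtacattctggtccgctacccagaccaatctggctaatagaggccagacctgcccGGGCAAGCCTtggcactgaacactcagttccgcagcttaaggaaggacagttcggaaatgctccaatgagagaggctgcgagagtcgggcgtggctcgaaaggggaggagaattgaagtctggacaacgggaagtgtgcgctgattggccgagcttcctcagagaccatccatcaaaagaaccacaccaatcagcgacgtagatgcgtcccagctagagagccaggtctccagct
Cdkn1a: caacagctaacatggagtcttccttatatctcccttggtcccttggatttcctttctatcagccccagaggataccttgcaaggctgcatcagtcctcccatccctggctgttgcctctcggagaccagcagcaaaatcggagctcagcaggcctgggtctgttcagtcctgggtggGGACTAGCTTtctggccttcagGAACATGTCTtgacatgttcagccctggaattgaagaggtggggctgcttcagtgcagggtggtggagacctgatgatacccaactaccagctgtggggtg
Aen: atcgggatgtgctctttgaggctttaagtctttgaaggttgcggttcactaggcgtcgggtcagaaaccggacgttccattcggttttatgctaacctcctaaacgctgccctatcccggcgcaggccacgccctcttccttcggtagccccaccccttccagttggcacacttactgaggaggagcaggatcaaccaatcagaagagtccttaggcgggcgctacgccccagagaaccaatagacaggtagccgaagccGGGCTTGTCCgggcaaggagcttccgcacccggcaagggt

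The remaining 8 genes that fell were Rpl22 and 7 genes outside the p53 list. Mxra7, named for matrix remodelling (chromosome 11, 116803400 to 116828127), lay at 3.91, 3.91, 3.76 and 4.09 log2 CPM in controls and 3.23, 3.14, 3.11 and 3.07 in PMCA mice, and fell by 0.78 (SE 0.08, adjusted p = 0.00713). Aldh1a1, which makes retinoic acid from retinal, lay at 6.05, 6.12, 6.21 and 6.12 in controls and 5.78, 5.65, 5.60 and 5.59 in PMCA mice, and fell by 0.47 (SE 0.05, adjusted p = 0.00713). Both genes were tight within groups, and their group gaps were several times the SD (0.13 and 0.07 for Mxra7, 0.06 and 0.09 for Aldh1a1, n = 4 each). E030003E18Rik, a transcript that overlaps Aldh1a1, also fell (-0.52, SE 0.08, adjusted p = 0.0371), and the sources used here do not say whether counting told the pair's strands apart.

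Cox6b2, an isoform of a cytochrome c oxidase subunit known from testis, had the largest fall. It lay at 2.45, 1.90, 1.81 and 2.27 in controls and 0.95, 0.71, 1.46 and 0.95 in PMCA mice (log2 fold -1.09, SE 0.19, adjusted p = 0.0437), with PMCA 3 nearest to the controls. Igfbp2, a binding protein of insulin-like growth factors, fell by 0.45 (SE 0.08, adjusted p = 0.0403). The enzymes Pgam1, of glycolysis, and Pmm1, of mannose metabolism, had the smallest falls (0.22 and 0.21 on the log2 scale, SE 0.04 each), at an SD of 0.02 to 0.05 within groups. These 2 genes thus changed by 1.16-fold and 1.15-fold.

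**Figure D1:**
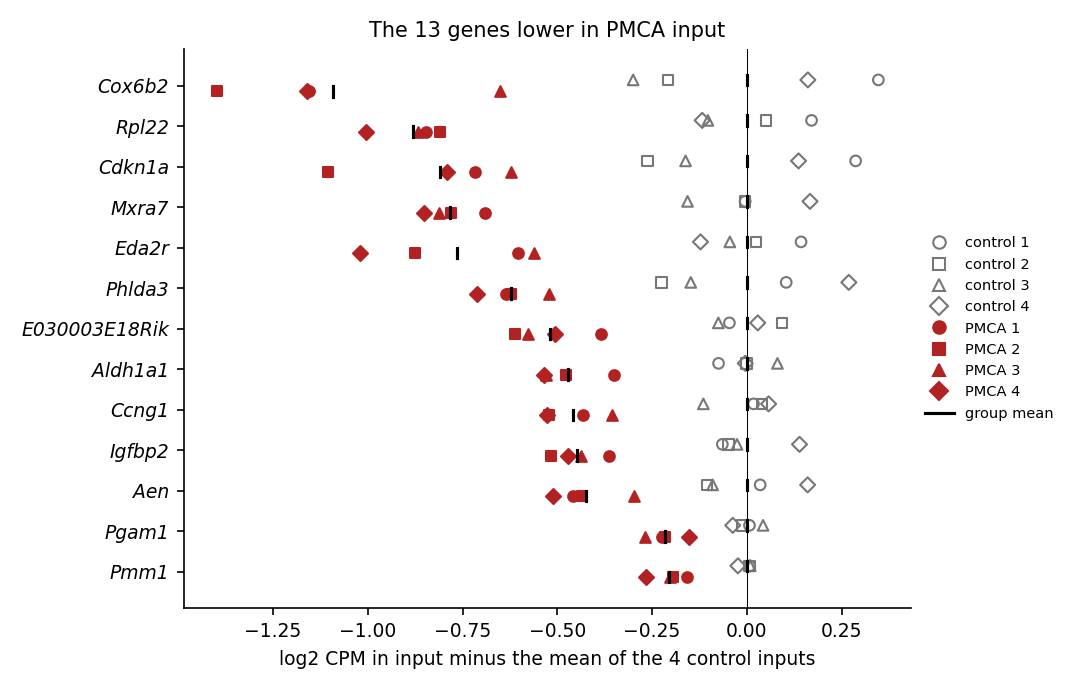
Level of the 13 genes that fell, in each input, as log2 CPM minus the mean of the 4 controls on the x axis, with open grey symbols for control 1 to 4, filled red symbols for PMCA 1 to 4 and a black tick for each group mean. For every gene the 4 PMCA inputs lie left of the 4 controls, by a mean of 1.09 for Cox6b2 and 0.21 for Pmm1.

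Of the genes of activated phagocytes, 3 were called higher in PMCA mice. Microglia and macrophages that clear debris switch on a set of receptors, lysosomal and lipid-handling proteins. Of 29 such genes 3 rose and none fell, against 0.362% and 0.0797% of all genes tested. The median log2 fold was 0.34, with 28 of 29 folds above 0 (48.3% of all genes tested were above 0). Without control 4, 16 of the 29 rose (median 0.44), against 5.74% of all genes tested. With the number set as a block 12 did (median 0.26), against 3.80%. Blocking on the source-name set instead left 1 (median 0.22). Within the higher-numbered mice, where the 1 control is control 4, the median was 0.13, and within the lower-numbered mice it was 0.31. Their summed level was 1540, 1550, 1580 and 1940 CPM in controls 1 to 4 and 1820, 1720, 1960 and 1890 CPM in PMCA 1 to 4, so control 4 lay above PMCA 1, PMCA 2 and PMCA 4.

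Clec7a, the dectin-1 receptor for fungal glucans, lay at 2.36, 2.75, 2.48 and 3.08 log2 CPM in controls and 3.89, 3.62, 3.79 and 3.90 in PMCA mice (log2 fold 1.13, SE 0.14, adjusted p = 0.0146). Gpnmb, a membrane glycoprotein of lipid-laden phagocytes, lay at 1.16, 0.90, 0.63 and 1.83 in controls and 2.54, 2.39, 2.79 and 2.20 in PMCA mice (1.35, SE 0.23, adjusted p = 0.0409). Cd84, a receptor of the SLAM family, lay at 3.28, 3.35, 3.01 and 3.76 in controls and 4.12, 4.13, 4.21 and 4.08 in PMCA mice (0.79, SE 0.13, adjusted p = 0.0403). In all 3 genes control 4 was the highest control and still lay below every PMCA input. Lgals3, the galectin-3 gene, and Lyz2, the lysozyme gene, did not pass (1.25, SE 0.25, adjusted p = 0.0584, and 0.88, SE 0.19, adjusted p = 0.0727). Lyz2 in control 4 (5.69) lay above PMCA 4 (5.66).

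Some of the genes with the largest folds had few reads. Arg1, arginase 1, which breaks down arginine in alternatively activated macrophages, lay at -1.36, -1.58, -2.42 and -1.37 log2 CPM in controls and 0.52, 0.37, -0.24 and -0.16 in PMCA mice, or 8 to 17 against 37 to 57 reads (log2 fold 1.80, SE 0.31, adjusted p = 0.0425). Ccl3, a chemokine that draws leukocytes, lay at -0.65, -0.18, -0.64 and 0.06 in controls and 1.16, 1.08, 1.16 and 1.39 in PMCA mice, or 23 to 46 against 80 to 109 reads (1.55, SE 0.20, adjusted p = 0.0147). Its neighbour Ccl4, a chemokine of the same family, rose by 1.18 (SE 0.21, adjusted p = 0.0434), and since the annotated spans of the pair overlap on chromosome 11, reads in the overlap are uncertain. Il1rl2, the receptor of interleukin-36, lay at -1.26 to -0.71 in controls and 0.12 to 0.56 in PMCA mice (1.28, SE 0.22, adjusted p = 0.0403). Of the 24 chemokine and cytokine genes tested, Ccl3 and Ccl4 rose and none fell, against 0.362% and 0.0797% of all genes tested. The median was 0.02.

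Single receptor genes of other immune classes were also called. Fcgr2b, the inhibitory receptor for IgG, lay at 3.06, 3.11, 2.89 and 3.92 in controls and 4.23, 4.25, 4.51 and 4.33 in PMCA mice (1.08, SE 0.18, adjusted p = 0.0403). Pirb, an inhibitory receptor that binds MHC class I, lay at 0.18, 0.62, 0.38 and 1.24 in controls and 1.72, 1.76, 1.90 and 1.74 in PMCA mice (1.18, SE 0.21, adjusted p = 0.0438). Pirb belongs to a family of near-identical genes and is uncertain to that extent, as is the pseudogene Nlrp1c-ps of the inflammasome sensor family (1.17, SE 0.22, adjusted p = 0.0483). Of 12 complement genes 1 rose, against 0.362% of all genes tested. This was C3ar1, the receptor of the complement fragment C3a (0.83, SE 0.15, adjusted p = 0.048). Its ligand's precursor C3 had a larger difference that did not pass (1.34, SE 0.27, adjusted p = 0.0669), with control 4 at 5.75 against 4.15 to 4.70 in the other controls and 5.82 to 6.43 in PMCA mice.

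Itga4, the integrin subunit that lets leukocytes bind to vessels, rose by 0.91 (SE 0.13, adjusted p = 0.0223), Xdh, xanthine dehydrogenase of purine breakdown, by 0.89 (SE 0.11, adjusted p = 0.0146), Fn1, the matrix protein fibronectin, by 0.95 (SE 0.15, adjusted p = 0.0403) and Elf4, an ETS transcription factor, by 0.88 (SE 0.16, adjusted p = 0.0447). Control 4 was the highest control for each of them, and it was so for 27 of the 59 genes that rose, and for 33.7% of all genes tested. Within the higher-numbered mice the differences were smaller than within the lower-numbered ones: 0.39 against 1.18 for Fn1, 0.50 against 1.22 for Fcgr2b, 0.66 against 1.57 for Gpnmb and 0.76 against 1.23 for Clec7a, with no test of the difference. Control 4 is the only control of the higher set.

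The AP-1 site TGACTCA, which Fos and Jun proteins bind, was in 6 of 48 promoter windows of the genes that rose (12.5%), 3 of 13 of those that fell (23.1%), 3.67% of windows of genes tested and 5.17% of all windows. The windows of the lower genes Aldh1a1 and E030003E18Rik overlap and share 1 site, so those 3 windows hold 2 sites. The PU.1 site GAGGAAGT, known from myeloid genes, was in 4 of 48 (8.33%) against 2.86% of windows of genes tested. Those 4 were Lpp, Lrrk1, Maml2 and Pirb, and 1 of 22 windows of the activated phagocyte list held it (4.55%). Of the 48, an interferon-stimulated response element was in 1 (2.08%, against 3.1% of windows of genes tested) and a STAT site in 2 (4.17% against 6.85%). An NF-kappa-B site was in 0 (against 0.245%). Both strands were searched. Gpnmb (chr6:49036268-49036567, plus strand) holds its AP-1 site 9 bases after the start and C3ar1 (chr6:122856108-122856407, minus strand) 22 bases before it. They are shown as examples of the site, in capitals, close to a start, and C3ar1 also has a p53 half-site, the first of its runs of capitals.
Gpnmb: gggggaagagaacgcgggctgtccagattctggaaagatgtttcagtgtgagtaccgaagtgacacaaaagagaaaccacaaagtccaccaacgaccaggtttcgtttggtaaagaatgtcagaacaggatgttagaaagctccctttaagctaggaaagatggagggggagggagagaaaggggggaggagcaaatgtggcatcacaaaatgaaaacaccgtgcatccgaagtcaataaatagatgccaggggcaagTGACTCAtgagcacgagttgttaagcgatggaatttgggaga
C3ar1: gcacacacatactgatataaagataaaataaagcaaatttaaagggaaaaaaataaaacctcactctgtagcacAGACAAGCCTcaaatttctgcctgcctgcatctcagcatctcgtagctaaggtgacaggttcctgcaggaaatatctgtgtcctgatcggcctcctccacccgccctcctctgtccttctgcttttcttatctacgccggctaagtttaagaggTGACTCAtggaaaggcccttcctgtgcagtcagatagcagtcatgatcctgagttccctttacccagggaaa

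**Figure D2:**
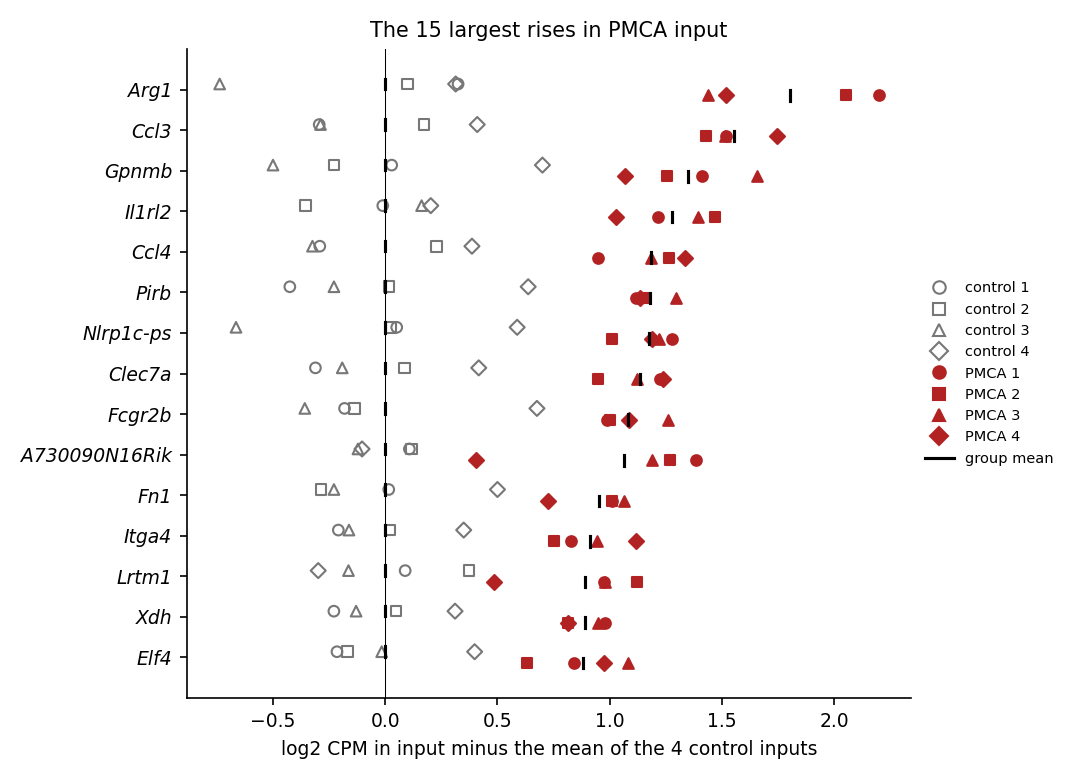
Level of the 15 genes of largest rise in each input, as log2 CPM minus the mean of the 4 controls on the x axis, with open grey symbols for control 1 to 4, filled red symbols for PMCA 1 to 4 and a black tick for each group mean. The 4 PMCA inputs lie right of the 4 controls for each gene. Control 4, the open diamond, is the highest control for all of these genes but Arg1, A730090N16Rik and Lrtm1.

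Genes of lymphocytes and of antigen presentation had log2 folds above 0, but none passed the threshold. All 7 MHC class II genes, which present peptides to helper T cells, had a log2 fold above 0 (median 1.0). None passed, and 6 had an unadjusted p under 0.05, against 10.4% of all genes tested in the higher direction. Cd74, the invariant chain, lay at 7.36, 7.28, 7.17 and 8.79 log2 CPM in controls and 8.54, 8.36, 9.19 and 8.91 in PMCA mice (1.1, SE 0.31, adjusted p = 0.117). Controls 1 to 3 were well below every PMCA mouse and control 4 was above PMCA 1 and PMCA 2. Ciita, the master regulator of these genes, had 1.0 (SE 0.23, adjusted p = 0.0818). Without control 4, 7 of 7 were higher (median 1.33), against 5.74% of all genes tested. With the number set as a block 5 of 7 were (0.79), against 3.80%. With the source-name set as a block none was (0.75). Within the higher-numbered mice the median was 0.13.

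Of 18 genes of T and natural killer cells all had a log2 fold above 0 (median 0.94) and none passed. At an unadjusted p under 0.05, 12 were higher, against 10.4% of all genes tested. Cd3d, of the T cell receptor complex, lay at 0.22, 0.07, -0.24 and 0.48 in controls and 0.77, 1.09, 1.46 and 1.76 in PMCA mice, with no overlap (1.14, SE 0.24, adjusted p = 0.0669). Cd8a, of cytotoxic T cells, lay at 0.18, 1.66, 0.67 and 2.19 in controls and 2.06, 2.13, 2.77 and 3.29 in PMCA mice (1.39, SE 0.41, adjusted p = 0.123), with control 4 among the PMCA values. Without control 4, 12 of 18 were higher, against 5.74% of all genes tested. With the number set as a block 7 were, against 3.80%. With the source-name set as a block none was (median 0.53). The lymphocyte medians kept their sign in both number sets: 0.74 and 0.53 for T and natural killer cells, and 0.87 and 0.29 for the 7 genes of B and plasma cells. The B and plasma cell list had a median of 0.78, no gene past the threshold and 5 with an unadjusted p under 0.05, among them Cd79a of the B cell receptor (0.85, SE 0.19, adjusted p = 0.0782).

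The median fold of homeostatic markers of microglia was smaller than that of activated phagocyte genes, with no test between them. None of 23 passed (median 0.23), and 19 folds were above 0. At an unadjusted p under 0.05, 10 were higher, against 10.4% of all genes tested. The median was -0.03 within the higher-numbered mice. Leaving out control 4 gave 15 higher genes (median 0.36), against 5.74% of all genes tested. The number set as a block gave 4 (median 0.13), against 3.80%, and none was lower in either fit. The source-name set as a block gave none in either direction (median 0.11). P2ry12, a purine receptor of resting microglia, lay at 5.52 to 5.85 in controls and 5.65 to 5.80 in PMCA mice (0.05, SE 0.07, adjusted p = 0.735). Tmem119 lay at 5.67 to 6.19 and 5.67 to 5.96 (0.00, SE 0.11, adjusted p = 0.997). Ctss, Cx3cr1 and Trem2 of the same list had larger log2 folds of 0.49, 0.31 and 0.29 (adjusted p = 0.132, 0.246 and 0.122). Of 35 interferon response genes none passed (5 higher and 1 lower at an unadjusted p under 0.05, median 0.06). Their summed level was 1610 to 1780 CPM in controls 1 to 3, 2740 CPM in control 4, 1650 and 1710 CPM in PMCA 1 and 2 and 2560 and 2760 CPM in PMCA 3 and 4, so the 3 mice of higher number were the 3 with a high sum. With the set as a block, 5 interferon genes were higher and 7 lower, against 3.80% and 1.52% of all genes tested. With the source-name set as a block none was higher and 1 was lower.

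**Figure D3:**
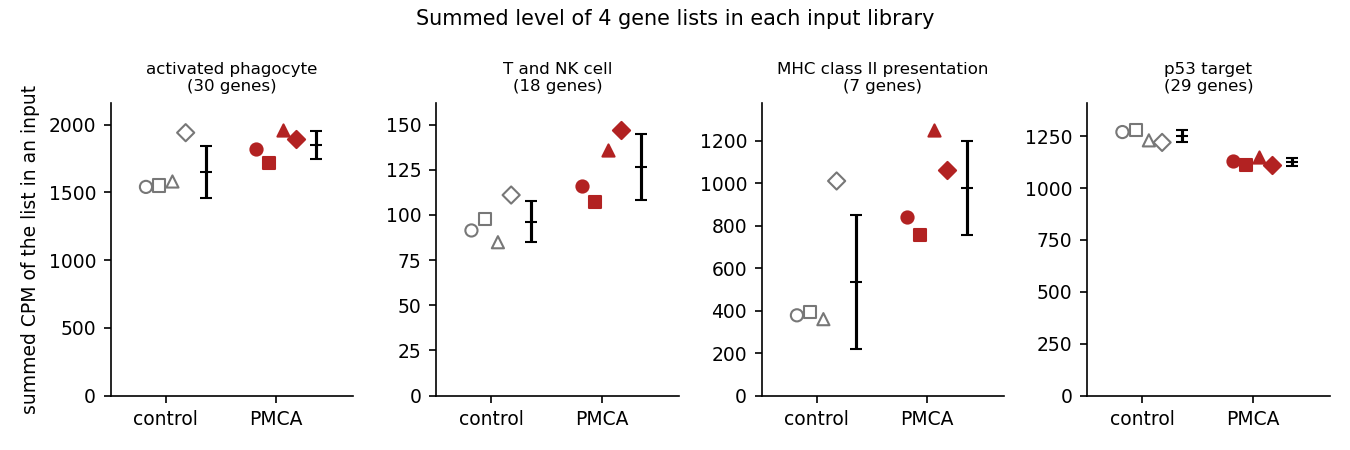
Summed CPM of 4 gene lists in each input on the y axis, from 0, with open grey symbols for control 1 to 4, filled red symbols for PMCA 1 to 4 and a bar for each group's mean and SD. Control 4, the open diamond, lies at 1010 CPM for MHC class II against 360 to 392 CPM in the other controls, and with the controls, at 1220 CPM, for p53 targets.

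Among astrocyte genes, the glutamate transporters were higher. Slc1a2, the gene of GLT-1, lay at 10.71, 10.65, 10.66 and 10.49 log2 CPM in controls and 10.83 (PMCA 4) to 11.03 (PMCA 1) in PMCA mice (log2 fold 0.31, SE 0.06, adjusted p = 0.0485). Slc1a3, the gene of GLAST, lay at 8.64, 8.69, 8.63 and 8.78 in controls and 8.96, 8.97, 8.93 and 8.93 in PMCA mice (0.26, SE 0.04, adjusted p = 0.0344). Both clear glutamate from synapses, and their rises were 1.24-fold and 1.20-fold, with control 4 the lowest control for the former and the highest for the latter. Without a block they were the 2 of 33 astrocyte markers that passed, against 0.362% of all genes tested in the higher direction. No marker fell, and the median of the markers was 0.03. Blocking on the number set gave 4 higher and 1 lower, against 3.80% and 1.52% of all genes tested. Without control 4 it was 8 and 0, against 5.74% and 2.55%. Blocking on the source-name set gave 1 and 0. The summed level of the list was 6720 to 6960 CPM in controls and 7220 to 7650 CPM in PMCA mice. Aldh1l1, a folate enzyme used to mark astrocytes, had a log2 fold of 0.28 (SE 0.08, adjusted p = 0.113), and 0.23 (adjusted p = 0.018) with the number set as a block. Slc25a18, a mitochondrial glutamate carrier, had -0.35 (SE 0.09, adjusted p = 0.106), and -0.34 (adjusted p = 0.045) with that block. With the source-name set as a block neither Aldh1l1 (0.21, adjusted p = 0.386) nor Slc25a18 (-0.32, adjusted p = 0.304) passed.

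Other rises were in genes that control mice held at a higher level in IP than in input, by at least 2-fold. Lpp, a LIM-domain protein of cell adhesions, lay at 3.17, 3.24, 3.26 and 3.30 in controls and 3.81, 3.81, 3.79 and 3.83 in PMCA mice, with an SD of 0.05 and 0.01 (0.57, SE 0.06, adjusted p = 0.00713), and it was called in 7 of the 8 omissions of a library. Abca1, which exports cholesterol, lay at 6.51, 6.15, 6.06 and 6.36 in controls and 6.94, 6.99, 6.95 and 6.82 in PMCA mice (0.65, SE 0.08, adjusted p = 0.0147). Notch1, a receptor that sets glial fate, rose by 0.52 (SE 0.09, adjusted p = 0.0479), Fat4, a giant cadherin, by 0.50 (SE 0.07, adjusted p = 0.0306) and Ptprz1, a receptor phosphatase of glia, by 0.41 (SE 0.06, adjusted p = 0.0371). In control mice these 5 genes were 2.20 to 3.08 log2 units higher in IP than in input. Of all 59 genes that rose, 16 were at least 2-fold higher in control IP, 26 were within 2-fold, and 17 were at least 2-fold lower. Of the 13 that fell, 12 were at least 2-fold higher in control IP, and the exception, Pgam1, was higher by 0.57. The same shares over all genes tested are not given here, so these counts show no enrichment. The control inputs also enter both this IP against input value and the fold.

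No gene of the reactive astrocyte lists passed in the 8 inputs without a block. Of 13 pan-reactive genes none passed (median 0.42). At an unadjusted p under 0.05, 8 were higher and 1 lower, against 10.4% and 8.94% of all genes tested. The median was 0.40 within the lower-numbered and 0.05 within the higher-numbered mice, with no test between the sets. With the number set as a block 4 of the 13 were higher and 1 lower, against 3.80% and 1.52% of all genes tested. Without control 4 it was 8 and 0, against 5.74% and 2.55%, and with the source-name set as a block none was called. Gfap, a filament protein, lay at 8.27, 8.25, 8.41 and 9.03 in controls and 8.69, 8.66, 9.09 and 8.96 in PMCA mice (0.36, SE 0.16, adjusted p = 0.244), so control 4 lay near PMCA 3 and PMCA 4. Serpina3n, a protease inhibitor induced by injury and one of a family of close copies, lay at 3.81 to 4.85 in controls and 4.84 to 5.88 in PMCA mice (1.0, SE 0.24, adjusted p = 0.0857). Its difference was 0.84 and 0.79 within the 2 sets, and it passed with the number set as a block (adjusted p = 0.00436) and without control 4 (adjusted p = 0.00764). With the source-name set as a block it did not pass (0.66, adjusted p = 0.3). The 11 genes of the A1 list and the 11 of the A2 list had medians of 0.37 and 0.12, and none passed (4 and 1 higher, 0 and 1 lower at an unadjusted p under 0.05). With the number set as a block 4 and 1 were higher, against 3.80% of all genes tested. Without control 4 it was 7 and 1, against 5.74%, with none lower in either fit. With the source-name set as a block no gene of these lists was called.

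Without a block no calcium handling gene was called. Of 36 pumps, channels, exchangers and buffers none passed (8 higher and 4 lower at an unadjusted p under 0.05, median 0.01). A pair of release channels of the endoplasmic reticulum had the smallest p-values of the list. Itpr2, the IP3 receptor of astrocytes, lay at 4.88, 4.65, 4.70 and 5.27 in controls and 5.40, 5.33, 5.41 and 5.33 in PMCA mice (0.49, SE 0.11, adjusted p = 0.077), with no overlap. Ryr3, a ryanodine receptor, lay at 8.29, 8.23, 8.03 and 8.08 in controls and 8.52, 8.51, 8.42 and 8.28 in PMCA mice (0.27, SE 0.07, adjusted p = 0.0888). With the number set as a block Itpr2 (0.44, adjusted p = 0.0138), Ryr3 (0.31, adjusted p = 0.00693) and Ryr2 (0.18, adjusted p = 0.0133) passed. These were the 3 calcium genes that did, against 3.80% of all genes tested in the higher direction. With the source-name set as a block no calcium gene passed (adjusted p = 0.196, 0.0913 and 0.129 for these 3). The fold of Itpr2 was 0.62 within the lower-numbered and 0.10 within the higher-numbered mice. Without control 4, 5 calcium genes were higher and 1 was lower, against 5.74% and 2.55%.

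Without a block no listed neuronal transcript was called. None of 20 shared projection neuron genes passed (1 higher and 3 lower at an unadjusted p under 0.05, median -0.03), none of 8 direct pathway genes (0 and 1, -0.06), none of 6 indirect pathway genes (0 and 1, -0.05) and none of 33 general neuronal genes (4 and 5, -0.04). Ppp1r1b had a log2 fold of -0.06 (SE 0.06, adjusted p = 0.609), Drd1a -0.07 (SE 0.06, adjusted p = 0.512) and Drd2 -0.02 (SE 0.04, adjusted p = 0.819). Of 15 interneuron genes none passed (2 higher and 0 lower at an unadjusted p under 0.05, median -0.07). Nos1, neuronal nitric oxide synthase, had the smallest p of these at 0.35 (SE 0.07, adjusted p = 0.0669), with control inputs at 4.96 to 5.15 and PMCA inputs at 5.19 to 5.53. It passed with the number set as a block (adjusted p = 0.00715) and without control 4 (adjusted p = 0.0228), as the 1 gene of the interneuron list in each. In these fits 3.80% and 5.74% of all genes tested were higher. With the source-name set as a block Nos1 did not pass (0.44, adjusted p = 0.0596). In control mice, however, Nos1 lay at 8.47 to 8.56 in IP, above its input level, and the cell type behind its RNA was not tested. With the number set as a block 3 general neuronal genes were higher and 1 lower, against 3.80% and 1.52% of all genes tested. Without control 4 it was 1 and 3, against 5.74% and 2.55%. Of the projection, direct and indirect pathway genes none was called in either fit. With the source-name set as a block no gene of these neuronal lists was called.

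Of 20 oligodendrocyte genes none passed (1 higher and 4 lower at an unadjusted p under 0.05, median -0.12), with Mbp, of myelin, at -0.19 (SE 0.07, adjusted p = 0.198) and Myrf, a transcription factor that drives myelination, at 0.28 (SE 0.07, adjusted p = 0.0885). Of 18 endothelial genes none passed (4 and 1, median 0.14), with Cldn5, of tight junctions, at 0.19 (SE 0.16, adjusted p = 0.529). Fn1 was the 1 of 12 fibroblast and matrix genes that rose (list median 0.23), against 0.362% of all genes tested.

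**Figure D4:**
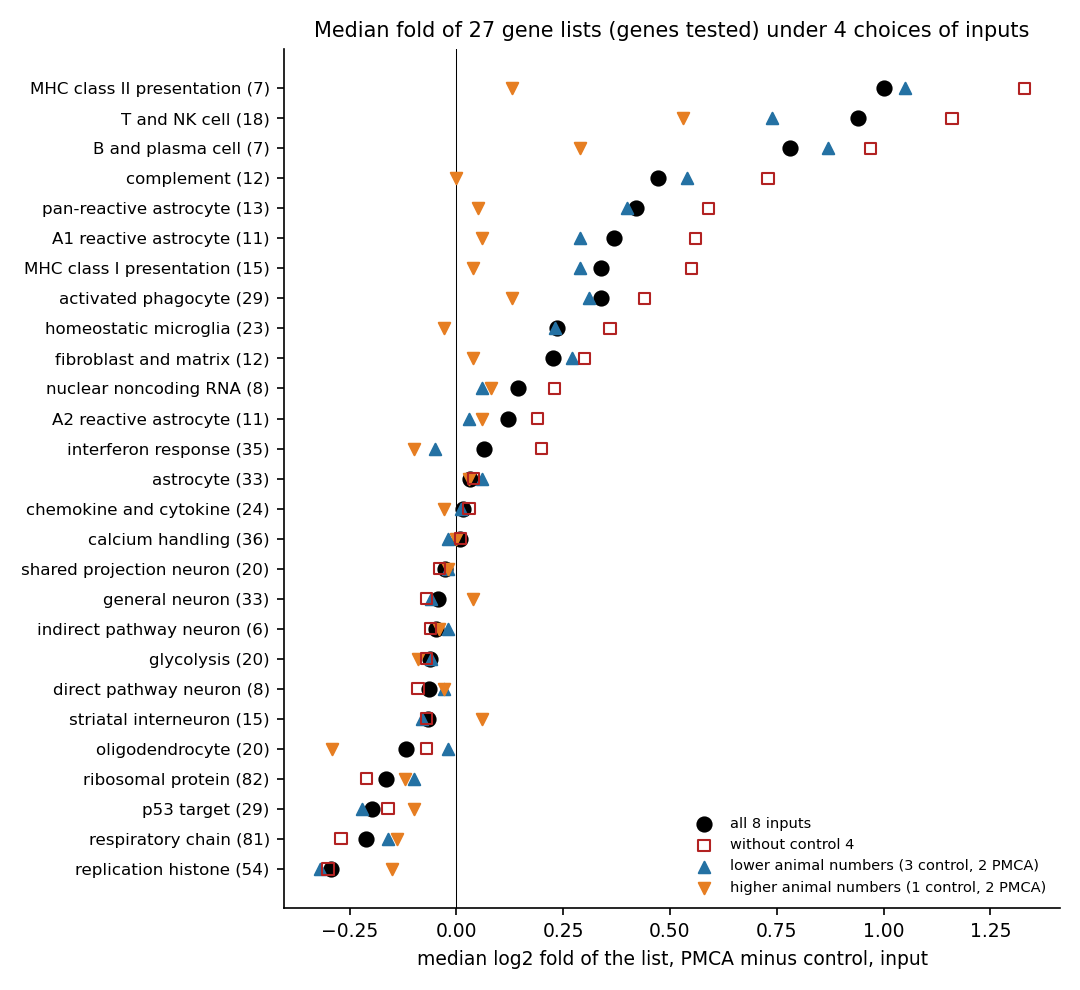
Median log2 fold (PMCA minus control, input) of 27 gene lists on the x axis, with the number of genes tested in brackets, for all 8 inputs, without control 4, and within the mice of lower and of higher animal number. The MHC class II median is 1.0 in all inputs and 0.13 in the higher-numbered mice, whereas the medians of p53 targets and respiratory chain genes are below 0 in all 4.

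Several rises were in noncoding transcripts that lie within or opposite other genes. Kcnq1ot1, the imprinted antisense RNA of Kcnq1, lay at 6.09, 6.38, 5.94 and 5.81 log2 CPM in controls and 7.0, 7.01, 6.81 and 6.54 in PMCA mice (0.78, SE 0.12, adjusted p = 0.0371). Sorbs2os, antisense to Sorbs2, lay at 2.07 to 2.23 in controls and 2.65 to 3.28 in PMCA mice (0.82, SE 0.13, adjusted p = 0.0371). A730090N16Rik in Kcnab1 (1.06), F630111L10Rik in Med12l (0.81), 5031426D15Rik in Celf2 (0.77) and Gm16907 in Aopep (0.61) also rose, as did Lrtm1, a leucine-rich membrane protein gene inside Cacna2d3 (0.89, SE 0.16, adjusted p = 0.0447). PMCA 4 was the lowest PMCA input for Kcnq1ot1, Sorbs2os, A730090N16Rik, 5031426D15Rik and Lrtm1. Libraries were stranded, but the sources used here do not say whether counting used the strand, so reads of these genes and of introns of their hosts cannot be told apart. Of 8 nuclear noncoding RNAs Kcnq1ot1 rose and none fell (median 0.15), against 0.362% and 0.0797% of all genes tested. Malat1, of nuclear speckles, had 0.05 (SE 0.12, adjusted p = 0.851).

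The genes that rose had long genomic spans. Their median span in the RefSeq annotation was 76.0 kb (58 of 59 with a span), against 9.82 kb for the 13 that fell and 22.8 kb for all genes tested, and 39.7% of them were over 100 kb against 14.3%. Examples are Macf1, a linker of actin and microtubules (0.37, SE 0.06, adjusted p = 0.0324), Dst, a linker of the same family (0.28, SE 0.05, adjusted p = 0.0403), Dmd, dystrophin (0.22, SE 0.04, adjusted p = 0.0409), and Ttn, the giant protein titin (0.52, SE 0.10, adjusted p = 0.048). Over all genes tested the median log2 fold was -0.07 for spans under 5 kb and 0.05 for spans of 100 to 200 kb and above 200 kb. Relative to each gene's mean over the 8 inputs, genes under 5 kb had a median of 0.03 to 0.05 log2 units in the 4 controls and -0.03 to -0.02 in the 4 PMCA mice. Above 200 kb it was -0.05 to -0.01 in controls and 0.05 at most in PMCA mice, with PMCA 4 at 0.00, and at 100 to 200 kb control 4 was at -0.01 and PMCA 4 at 0.01. The part of RNA quality, unspliced RNA or length in the calls was not tested.

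Transcripts of the ribosome, the respiratory chain and histones had folds below 0. Of 82 ribosomal protein genes, which build the cytosolic ribosome, Rpl22 fell and none rose, against 0.0797% and 0.362% of all genes tested. Folds were below 0 for 81 of these genes (median -0.16). At an unadjusted p under 0.05, 30 of them were lower, against 8.94% of all genes tested. Rpl18 lay at 6.53 to 6.57 in controls and 6.31 to 6.42 in PMCA mice (-0.18, SE 0.04, adjusted p = 0.0755). Of 81 nuclear genes of the respiratory chain Cox6b2 fell and none rose, and 80 folds were below 0 (median -0.21). At an unadjusted p under 0.05, 64 of these genes were lower, against 8.94% of all genes tested. Cox5a, a cytochrome c oxidase subunit, lay at 6.66 to 6.80 in controls and 6.38 to 6.55 in PMCA mice (-0.25, SE 0.05, adjusted p = 0.0578).

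Of 54 replication histone genes, whose RNAs lack a poly(A) tail, all folds were below 0 (median -0.29), none passed and 27 were lower at an unadjusted p under 0.05, with Hist1h1d, a linker histone, at -0.33 (SE 0.06, adjusted p = 0.0584). As for the activated phagocyte sum, control 4 lay within the range of the PMCA mice. The summed respiratory chain level was 10400, 10900, 10500 and 9270 CPM in controls 1 to 4. In PMCA 1 to 4 it was 9760, 9530, 8490 and 8510 CPM. The ribosomal protein sum was 12000 CPM in control 4, 13100 to 14800 CPM in controls 1 to 3 and 10800 to 12800 CPM in PMCA mice. With the number set as a block 30 respiratory chain, 7 ribosomal protein and 5 histone genes were lower, against 1.52% of all genes tested. Without control 4 these were 44, 15 and 16, against 2.55%, and none was higher in either fit. With the source-name set as a block they were 0, 1 and 0.

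The same mice's IP libraries were used to see how the genes called in input behaved in the RNA precipitated through the tag. In IP 3088 of 15748 genes passed (19.6%), of which 1503 rose (9.54%) and 1585 fell (10.1%). Of the 59 genes that rose in input, 55 were tested in IP, all 55 had a fold of the same sign and 42 passed. All 13 that fell were tested, all had the same sign and 11 passed. Each IP came from the same lysate as its input, so these counts are no independent support. The share of all genes with the same sign in both fractions is not given here. Cd84 had a log2 fold of 1.91 in IP (SE 0.32, adjusted p = 0.00489), Clec7a 1.64 (SE 0.44, adjusted p = 0.0273), Fcgr2b 1.72 (SE 0.26, adjusted p = 0.00386) and Gpnmb 0.77 (SE 0.22, adjusted p = 0.0376). In control mice Cd84 and Clec7a lay 4.36 and 4.78 log2 units lower in IP than in input, so their IP levels were low. For both, every PMCA IP lay above every control IP, with PMCA 4 highest. Clec7a was at 0.91 log2 CPM in its IP, against -1.14 to -0.56 in PMCA 1 to 3, and Cd84 at 1.77 against 0.23 to 1.02. The microglial genes Cx3cr1 (5.19 against 2.22 to 2.36) and Tmem119 (3.82 against 0.55 to 0.85) were also highest there. The part of microglial RNA in these IP folds was not tested. Fn1 (0.24, SE 0.15, adjusted p = 0.293), Slc1a3 (0.18, SE 0.11, adjusted p = 0.301) and Slc1a2 (0.40, SE 0.22, adjusted p = 0.223) did not pass in IP. Among p53 targets, 18 of 29 fell in IP (median -0.36).

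The difference between the 2 effects was tested on the IP minus input difference of each mouse, and 184 of 15470 genes passed (1.19%). Of the 72 genes called in input only Rpl22 did, which fell by 1.69 in IP (SE 0.09) and by 0.88 in input (difference -0.81, adjusted p = 0.0252). Among the p53 targets named here, Ckap2 (-1.98 in IP, difference -1.04, adjusted p = 0.0372) and Mdm2 (-0.62 in IP, difference -0.51, adjusted p = 0.0326) also had a larger fall in IP, whereas for Ccng1 the folds were -0.43 and -0.46 (difference 0.03, adjusted p = 0.896). Snhg11, a nuclear noncoding RNA of neurons, rose by 1.38 in IP (SE 0.16) and had 0.26 in input (SE 0.07, adjusted p = 0.12), with a difference of 1.12 (adjusted p = 0.0434). For Meg3 and Malat1 the IP folds of 1.21 and 1.15 exceeded those in input (0.17 and 0.05), but the difference did not pass (adjusted p = 0.0689 and 0.0621).

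**Figure D5:**
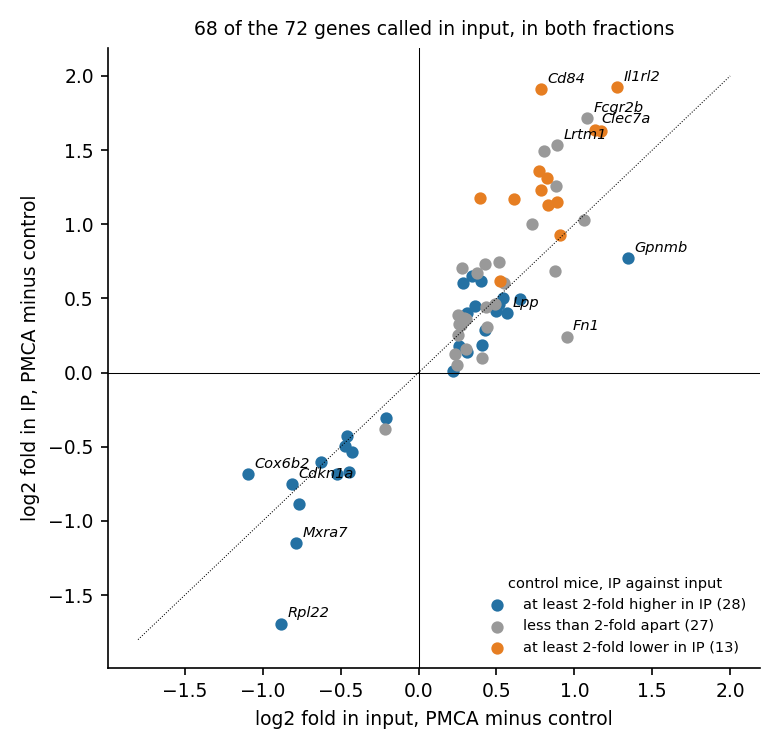
Log2 fold (PMCA minus control) in input on the x axis and in IP on the y axis for the 68 of 72 called genes that were tested in both, coloured by the control mice's IP level against input, with a dotted line of equal folds. All 68 points lie in the lower left or upper right quadrant, Rpl22 at -0.88 and -1.69, and the 12 genes at least 2-fold higher in control IP that fell form the blue points at lower left.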

How the data were processed

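Per the labels' protocols, total RNA was made into stranded, ribosomal RNA-depleted Illumina libraries. Per the submitters' processing notes, STAR, HTSeq, edgeR and limma were used with mm10; versions, annotation and strand use were not given in the sources used here. Deposited by the authors were log2 CPM values of 20730 genes per library. Undoing the log2 and a mean prior count of 0.25 returned whole reads (tolerance 0.001), which gave library totals and the authors' scaling factors (1.10 to 1.12 in inputs).

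The deposited log2 CPM of the 8 inputs were tested with limma 3.58.1 (R 4.3.3), moderated with a mean-variance trend, for genes with at least 10 reads in at least 4 inputs and 15 in all. Fold changes are on the log2 CPM scale and understate those of genes near the lowest value (-7.47). Titles name a separate mouse per input, and in all 12 pairs of a group counts differed beyond sampling noise. Named were all falls, the 15 largest rises, members of lists with the smallest p and defining markers; others were picked after their values were seen. The comparison, gene lists and motifs were chosen with earlier results of these data known. The p53 half-site, and list counts by number set (titles and source names) and without control 4, were added after seeing these files. Alternatives changed filter, scaling, prior count, variance model, blocks and libraries. The test was checked on simulated data. Of the gene names, 19546 matched a RefSeq symbol (GRCm38.p6), 1056 one synonym, 14 several and 114 none.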

Additional observations from a re-analysis of the deposited data

Results flagged for a closer look

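In single groups of 4 inputs, 1 library lay far from the other 3 for several genes named above. Such gaps arise by chance in about 1 in 20 groups. In controls, replicate 4 lay apart for Cd74 (8.79 log2 CPM), H2-Aa, an MHC class II chain (7.50), Tmem119 (6.19) and Aspg, a pan-reactive gene (1.60), each above the other controls, and for Ryr2 (7.77) and Pmm1 (6.55), each below them. Control 2 was low for Gdf15 (-0.78). In PMCA mice, replicate 4 was low for Fn1 (4.10), 5031426D15Rik (3.91) and Fyco1, an adaptor of autophagosome transport (5.49), and high for Dst (9.27). The sex-linked genes parted 1 mouse from each group: Ddx3y, a Y-linked gene, was at -1.64 in control 4 and -1.89 in PMCA 3, and Xist was at 7.22 in PMCA 3.

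The PMCA effect differed between fractions, by the test on the IP minus input difference of each mouse, for Rpl22 (-0.81), Ckap2 (-1.04) and Mdm2 (-0.51), which were lower by more in IP, and for Snhg11 (1.12), which was higher by more.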

How the results depend on the processing

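The numbers of higher and lower genes in input were 59 and 13. They were 33 higher without a filter on low values, 105 higher with quantile normalization, 8 higher and 5 lower without the mean-variance trend, and 28 higher with all 16 libraries and the animal as a random block. With blocks they were 620 and 248 (number set of the titles), 25 and 7 (number set of the source names, which puts control 4 in the lower set) and 570 and 216 (mice with high Xist). They were 421 and 56 within the lower set, 105 and 95 within the higher set, and 426 and 64 without the mice with high Xist. Leaving out 1 library gave 0 to 936 higher and 4 to 416 lower genes, most without control 4. The genes whose PMCA effect was higher in IP than in input numbered 108, and 2 to 64 on leaving out 1 mouse. The genes whose PMCA effect was lower in IP than in input numbered 76, 5 to 37 on leaving out 1 mouse, and 138 with the stricter filter of 50 reads. The cause of these shifts was not tested. None of the 72 called genes changed direction under any of the 23 alternatives. Of 174 fold changes and list medians, 31 that were not called changed sign in at least 1, such as Malat1 (-0.14 within the lower set), P2ry12 (-0.18) and Cldn5 (-0.19) within the higher set. No paired analysis was possible because the control and PMCA mice share no animal numbers. Genes under about 50 reads in every control input, such as Arg1, Il1rl2 and Ccl3, rest on few counts.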
